A study of Homo sapiens with 9 samples.

Results

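RTL8A, RTL8B and RTL8C are the 3 members of the RTL8 family, and they are described here in VCaP cells in which cysteine dioxygenase (CDO1) was knocked down. The members were taken by symbol, and they are 3 of the 58735 genes of the count table. The family was taken up because RTL8C was selected on its measured values: it passed the test with both siRNAs against CDO1 and went in opposite directions. The values of RTL8C are therefore given as a description with no test, while RTL8A and RTL8B were tested. RTL8B varied with RTL8C over the 9 libraries (Pearson's r = 0.852), so the tests of RTL8B are not fully independent of that choice.

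VCaP is an established prostate cancer line that carries the androgen receptor, and in all groups the cells were grown with 2 nM DHT, an androgen. RNA-seq was made from cells given a control siRNA (siCtrl) or either of 2 siRNAs against CDO1 (siCDO1A and siCDO1C). There were 3 libraries per condition and 9 in all, labelled as biological replicates 1 to 3, with the same number for the batch. As the labels do not say whether replicates were separate cultures, p-values measure the spread between these libraries. All the libraries come from this single line, and the siRNA sequences are not given in the sources used here.

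The RTL genes (retrotransposon Gag-like) arose from Ty3/gypsy-type LTR retrotransposons, mobile elements whose Gag protein builds a capsid. In the course of mammalian evolution these copies lost the ability to move and were retained as single-copy or small-family genes, of which PEG10 and RTL1 are known for their roles in the placenta. RTL8 proteins are short and correspond to a part of Gag. Their levels, like that of the PEG10 protein, are known to be controlled by the ubiquilin UBQLN2, a shuttle factor that brings proteins to the proteasome.

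The 3 genes lie together on the long arm of chromosome X. In the coordinates of GRCh38, RTL8B (ENSG00000212747) lies at 135020504 to 135022529 on the minus strand, RTL8C (ENSG00000134590) at 135032366 to 135033546 on the plus strand and RTL8A (ENSG00000203950) at 135050932 to 135052196 on the minus strand. They span 31693 bases, with 9836 bases between RTL8B and RTL8C and 17385 bases between RTL8C and RTL8A. No other gene of the table lies between them or overlaps them, so that no antisense partner in the table shares their reads. The protein-coding transcript of each consists of 1 exon, and the annotated gene lengths are 1265 bases for RTL8A, 2026 for RTL8B and 1181 for RTL8C.

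The coding sequences are near copies of each other, which matters for how reads can be assigned to the members. Each is 342 bases long. Of the 342 coding positions, 23 are not the same in all 3 genes, and 14 of these lie in the first 150 (transcripts of GENCODE v44lift37). RTL8A and RTL8B have 96.5% of coding bases in common with 12 differences, RTL8A and RTL8C 95.3% with 16 differences, and RTL8B and RTL8C 94.4% with 19 differences. RTL8C alone departs from the other two at 11 positions, RTL8B alone at 7 and RTL8A alone at 4.

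The fragments were sequenced with reads of 150 bases, so the transcripts were compared in windows of this length, without gaps. The libraries were paired-end, and a window stands for a single read. How a fragment is placed by both of its reads was not modelled. No 150-base window was identical between any pair of members. The longest stretch in common was 107 bases for RTL8A and RTL8B, 81 for RTL8B and RTL8C and 61 for RTL8A and RTL8C. The closest windows differed at 2 positions between RTL8A and RTL8B, at 2 between RTL8B and RTL8C and at 3 between RTL8A and RTL8C.

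Windows with 2 mismatches or fewer to another member made up 3 of 1055 for RTL8A, 37 of 1881 for RTL8B and 34 of 1043 for RTL8C. The 34 RTL8C windows were all close to RTL8B and started at positions 411 to 444 of the transcript, behind the coding sequence, which ends at position 371. The 3 RTL8A windows were close to RTL8B and started at positions 145 to 147, inside the coding sequence. Thus the near-identical places differ between pairs, and RTL8B is the partner in each of them.

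A looser limit takes in more of each transcript. Windows with 10 mismatches or fewer made up 33.3% of the RTL8A transcript, 28.6% of RTL8B and 48.1% of RTL8C. Of the 31-base words of each transcript, 80.9% of RTL8A, 84.0% of RTL8B and 79.6% of RTL8C occurred in no transcript of another gene of the annotation on either strand, and the rest were shared only within the family. How the counting treated reads that map to more than 1 place is not given in the sources used here, so that a part of the reads near these stretches may have been left out or given to another member. The size of this share was not tested.

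**Figure D1:**
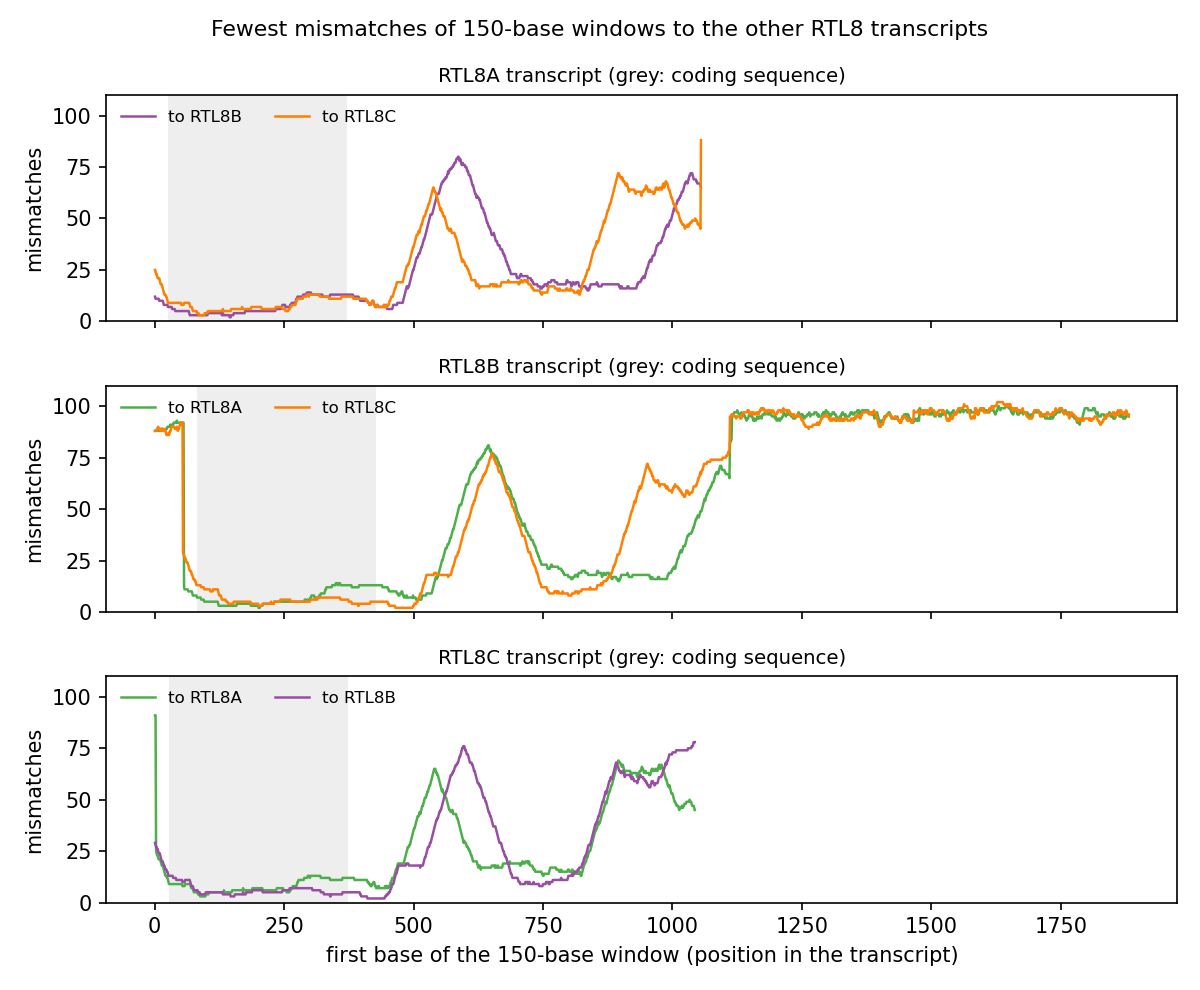
Mismatches of each 150-base window of the RTL8A, RTL8B and RTL8C transcripts to the closest window of each other member, against the position of the window's first base in the transcript (in bases). Low values mark places where a read could be placed on another member with few mismatches, and no window of any member reaches 0.

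The libraries held between 12061295 and 16073698 counts, and 15555 genes were tested, among them all 3 RTL8 genes. CDO1 was at 13.7 to 14.2 CPM with siCtrl (CPM are counts scaled to a common library size), 2.05 to 3.28 CPM with siCDO1A and 1.10 to 2.82 CPM with siCDO1C. All 9 prostate luminal markers were tested, and their summed level was 5925 to 6083 CPM with siCtrl, 6819 to 7225 with siCDO1A and 6367 to 6534 with siCDO1C. Of the 3 basal markers, KRT5 and TP63 had at most 2 and 3 counts, while KRT14 went from 1.18 ± 0.249 CPM in siCtrl to 2.62 ± 0.471 in siCDO1A cells (SD, n = 3; log2 fold change 1.14, adjusted p = 0.0101, edgeR), and the summed list was at 1.17 to 1.51, 2.31 to 3.42 and 1.30 to 2.74 CPM in siCtrl, siCDO1A and siCDO1C libraries. The 4 fibroblast markers together were at 17.2 to 21.4, 19.8 to 22.8 and 13.9 to 17.9 CPM, with COL1A2 at 0. Among them, COL1A1 went from 2.40 to 4.09 CPM with siCDO1A (adjusted p = 0.0353, edgeR) and LUM from 16.8 to 12.2 CPM with siCDO1C (adjusted p = 0.0498, edgeR). The calls were lost in 2 of 12 alternatives for KRT14, in 6 of 12 for COL1A1 and in 7 of 12 for LUM. The 3 endothelial markers reached at most 2.34, 2.38 and 2.67 CPM, with CDH5 at 0, and the 3 leukocyte markers at most 0.412 CPM. Luminal, basal and fibroblast markers thus moved with the siRNAs, and their part in the RTL8 values was not tested. Bulk RNA cannot tell less RNA per cell from fewer cells with this RNA.

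All 3 members were well above the level that a count of 0 allows, 3 counts or 0.187 to 0.249 CPM. Per kilobase of annotated gene length, in siCtrl cells, RTL8C was at 28.6 ± 2.81 CPM per kb (SD, n = 3), RTL8A at 21.0 ± 0.634 and RTL8B at 15.5 ± 0.744. In this order each member was separated from its neighbour by more than the spread. These levels placed RTL8C at the 88.9th, RTL8A at the 84.0th and RTL8B at the 77.9th percentile of the 13076 protein-coding genes tested.

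The order per kb was the same with siCDO1A, with RTL8C at 35.2 ± 1.49, RTL8A at 29.7 ± 1.61 and RTL8B at 14.9 ± 0.572 CPM per kb (SD, n = 3). With siCDO1C, RTL8A came first with 25.0 ± 2.40 CPM per kb, before RTL8C with 17.8 ± 2.38 and RTL8B with 10.0 ± 0.891. RTL8C thus went from the highest to the middle level of the family. RTL8B was the lowest member per kb in every condition.

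RTL8A rose with siCDO1A. It was at 27.3, 25.7 and 26.8 CPM in the siCtrl libraries 1 to 3, from 350, 323 and 432 reads. It was at 35.3, 39.1 and 38.4 CPM with siCDO1A and at 29.4, 35.1 and 30.4 CPM with siCDO1C. Every siCDO1A library was above every siCtrl library, and the siCDO1C libraries lay between these groups with no overlap to either. The means were 26.6 ± 0.802, 37.6 ± 2.03 and 31.6 ± 3.04 CPM (SD, n = 3).

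With siCDO1A the rise of RTL8A was 1.41-fold (log2 fold change 0.50, SE 0.0833, adjusted p = 0.000332 by edgeR's quasi-likelihood test with Benjamini-Hochberg adjustment). In this comparison 14.8% of all genes tested were changed, with 7.37% higher and 7.48% lower. With siCDO1C the log2 fold change was 0.24 with a 95% interval of 0.03 to 0.45, and it did not pass the test (adjusted p = 0.19, edgeR). The direct comparison of siCDO1C with siCDO1A gave -0.26 with an interval of -0.47 to -0.04, which did not pass either (adjusted p = 0.521, edgeR). Within batches 1 to 3 the log2 ratio of siCDO1A to siCtrl was 0.37, 0.60 and 0.52, and that of siCDO1C to siCtrl 0.11, 0.45 and 0.18.

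RTL8B fell with siCDO1C. It was at 31.9, 29.7 and 32.6 CPM with siCtrl, from 409, 373 and 525 reads. With siCDO1A it was at 28.9, 30.7 and 31 CPM, and with siCDO1C at 19.1, 19.5 and 22.4 CPM. The siCDO1A libraries overlapped the siCtrl libraries, whereas all siCDO1C libraries were below all the others. The means were 31.4 ± 1.51, 30.2 ± 1.16 and 20.3 ± 1.80 CPM (SD, n = 3).

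The decrease of RTL8B with siCDO1C was 1.56-fold (log2 fold change -0.64, SE 0.1, adjusted p = 0.00176, edgeR), where 4.77% of all genes were changed, with 2.27% higher and 2.5% lower. With siCDO1A the log2 fold change was -0.06 with a 95% interval of -0.23 to 0.12 (adjusted p = 0.715, edgeR). RTL8B was also lower with siCDO1C than with siCDO1A (log2 fold change -0.58, SE 0.106, adjusted p = 0.0152, edgeR), a comparison in which 0.444% of all genes were changed, with 0.244% higher and 0.199% lower. This last call rested on single libraries: without siCDO1A replicate 1, siCDO1A replicate 2, siCDO1A replicate 3 or siCDO1C replicate 1, the adjusted p was 0.0855, 0.137, 0.12 and 0.144. Within batches 1 to 3 the log2 ratio of siCDO1C to siCtrl was -0.74, -0.61 and -0.54, and that of siCDO1C to siCDO1A -0.60, -0.66 and -0.47.

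RTL8C, the member selected on these values, was higher with siCDO1A and lower with siCDO1C. It was at 35.5, 29.9 and 35.8 CPM with siCtrl, from 456, 376 and 577 reads. It was at 42.7, 42.5 and 39.5 CPM with siCDO1A and at 20.3, 24.1 and 18.7 CPM with siCDO1C. The siCDO1A libraries were all above and the siCDO1C libraries all below the siCtrl libraries. The means were 33.8 ± 3.32, 41.6 ± 1.76 and 21.0 ± 2.81 CPM (SD, n = 3).

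The log2 fold change of RTL8C was 0.30 (SE 0.0858) with siCDO1A and -0.69 (SE 0.113) with siCDO1C, each against the same siCtrl libraries. Of the 565 genes changed with both siRNAs, 2 went in opposite directions, RTL8C and PAFAH1B2, of which the second was named after its values were seen. The choice of the gene depended on the fit: with siCDO1A, RTL8C did not meet the threshold of the rule with the batch number as a block, in 1 fit over the 9 libraries, or without siCtrl replicate 2, siCDO1A replicate 1 or siCDO1A replicate 2. Within batches 1 to 3 the log2 ratio of siCDO1A to siCtrl was 0.26, 0.51 and 0.14, and that of siCDO1C to siCtrl -0.81, -0.31 and -0.94.

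The batch 2 libraries were the least apart in RTL8C between siCDO1C and siCtrl. In that batch siCtrl was lowest and siCDO1C highest of their groups. The siCDO1C replicate 2 also had the highest RTL8A of its group, and leaving this library out raised the number of genes changed by siCDO1C from 742 to 2068.

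**Figure D2:**
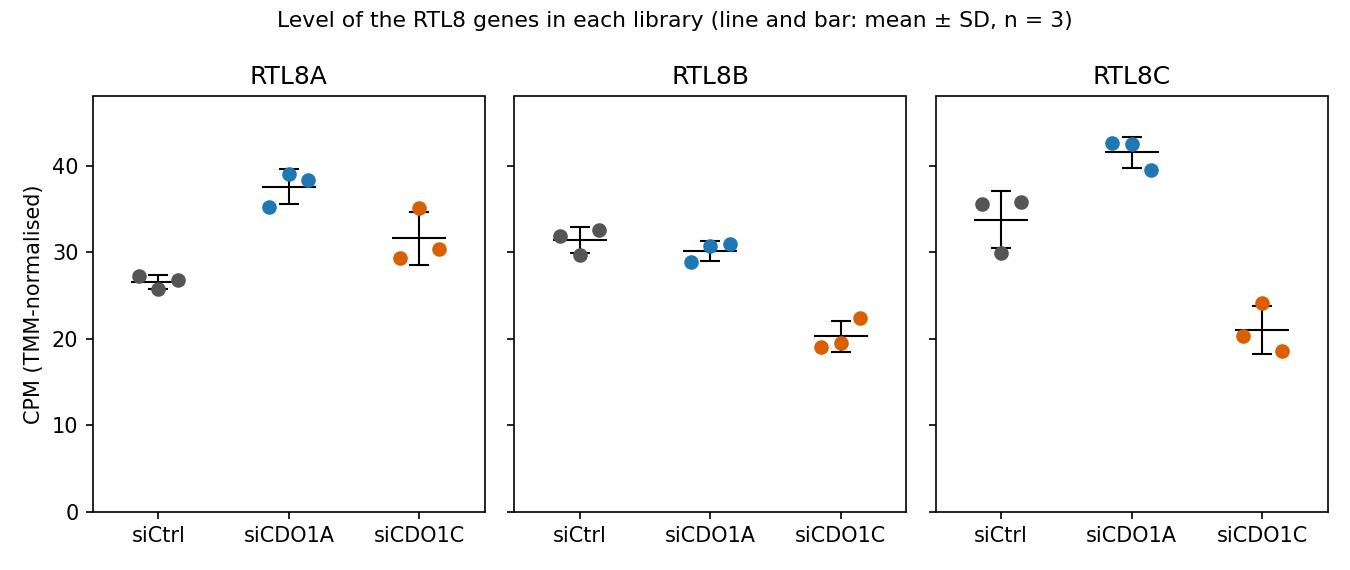
Levels of RTL8A, RTL8B and RTL8C in CPM in each of the 9 libraries, by condition, with the mean and SD of the 3 libraries of a condition and an axis that starts at 0. RTL8A is highest with siCDO1A, RTL8B is lowest with siCDO1C, and RTL8C lies above siCtrl with siCDO1A and below it with siCDO1C.

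The groups of RTL8A were separate in every comparison, and those of RTL8B in every comparison apart from siCDO1A with siCtrl. The groups of RTL8C were separate too, but RTL8C was selected on these values, so its separation is a description. Over all genes tested, the groups did not overlap in 30.6% of genes for siCDO1A and siCtrl, in 24.2% for siCDO1C and siCtrl and in 12.7% for siCDO1C and siCDO1A. The siRNA comparisons share the siCtrl libraries and are not independent of each other.

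**Figure D3:**
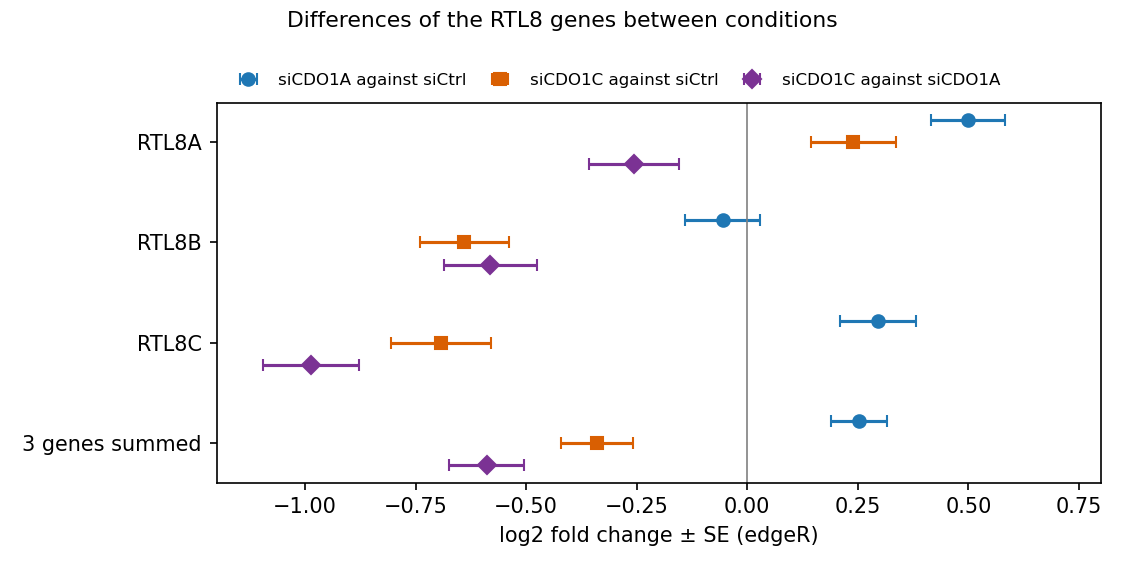
Log2 fold changes of RTL8A, RTL8B, RTL8C and the summed RTL8 counts in the 3 comparisons, with bars that show the SE from edgeR. RTL8A is above 0 with both siRNAs, RTL8B is near 0 with siCDO1A and at -0.64 with siCDO1C, and RTL8C changes side.

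The replicate spread was close to what read counting alone gives for RTL8A and RTL8B in siCtrl, with coefficients of variation of 3.01% and 4.82% against 5.24% and 4.83% from counting. The spread of RTL8C in siCtrl was wider, with 9.84% against 4.67%. With siCDO1C all 3 members spread more than counting gives, with 9.61% for RTL8A, 8.87% for RTL8B and 13.4% for RTL8C against 4.90%, 6.11% and 6.03%. With siCDO1A, the coefficients were 5.40% for RTL8A, 3.83% for RTL8B and 4.24% for RTL8C, against 4.39%, 4.89% and 4.16% from counting.

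As reads could be exchanged between members, the counts were also summed over the family, which no exchange within the family can alter. Reads left out of the counting would be missing from the sum as well, and their number is not known. The summed level was 94.7, 85.4 and 95.3 CPM with siCtrl, 107, 112 and 109 CPM with siCDO1A and 68.7, 78.7 and 71.4 CPM with siCDO1C. All siCDO1A libraries were above and all siCDO1C libraries below the siCtrl libraries. RTL8C, chosen by its values, is a part of this sum, which is therefore given with no test, as log2 fold changes of 0.25 (SE 0.0631) with siCDO1A and -0.34 (SE 0.081) with siCDO1C.

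The sum of RTL8A and RTL8B leaves out RTL8C. Its log2 fold change was 0.23 with siCDO1A (adjusted p = 0.0321, edgeR) and -0.17 with siCDO1C (adjusted p = 0.287, edgeR). It was -0.39 for siCDO1C against siCDO1A (adjusted p = 0.0751, edgeR). RTL8A and RTL8B lie on different sides of 0 with siCDO1C, and their sum is near the middle.

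The shares of the members in the family's reads contain RTL8C and are given as descriptions. RTL8A made up 29.0% ± 1.00 of the reads with siCtrl, 34.4% ± 1.17 with siCDO1A and 43.3% ± 1.12 with siCDO1C (SD, n = 3). RTL8B made up 34.2% ± 0.565, 27.6% ± 0.745 and 27.9% ± 3.29. RTL8C made up 36.7% ± 1.44, 38.0% ± 1.83 and 28.8% ± 2.36. The siCDO1A libraries overlapped those of siCtrl in the RTL8C share. RTL8A held the smallest share in control cells and the largest with siCDO1C.

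**Figure D4:**
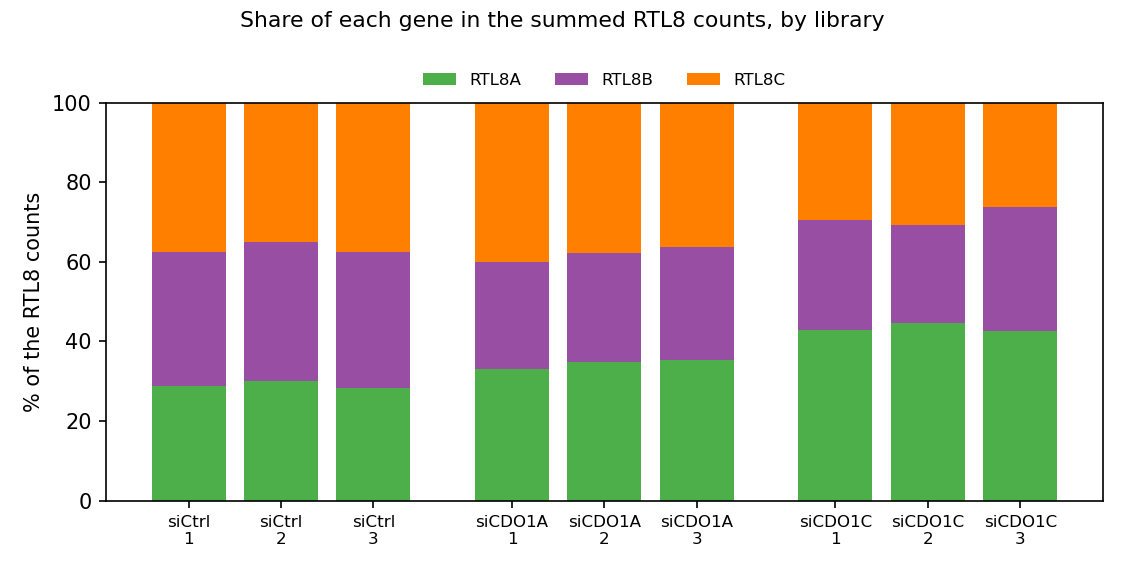
Share of RTL8A, RTL8B and RTL8C in the summed RTL8 reads of each library, in percent, with the libraries grouped by condition. RTL8A takes about 29.0% with siCtrl and 43.3% with siCDO1C, and RTL8C is lowest with siCDO1C at 28.8%.

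The ratio of RTL8A to RTL8B does not depend on the depth of a library. It was 0.856, 0.866 and 0.823 with siCtrl, 1.22, 1.27 and 1.24 with siCDO1A and 1.54, 1.80 and 1.36 with siCDO1C. No ratio of a group fell into the range of another group. On the log2 scale the ratio was higher than with siCtrl by 0.55 with siCDO1A and by 0.88 with siCDO1C, and higher with siCDO1C than with siCDO1A by 0.32. An exact two-sided permutation test gave p = 0.1 for each of these 3 comparisons, also after Benjamini-Hochberg adjustment, which is the smallest p that 3 against 3 libraries allow.

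The ratio of RTL8C to RTL8A was 1.27 ± 0.0913 with siCtrl, 1.11 ± 0.0918 with siCDO1A and 0.664 ± 0.0431 with siCDO1C (SD, n = 3). That of RTL8C to RTL8B was 1.07 ± 0.0577, 1.38 ± 0.101 and 1.05 ± 0.203. RTL8C and RTL8B thus kept a like ratio between siCtrl and siCDO1C, where both were lower, while RTL8A and RTL8C moved apart there. These ratios contain RTL8C and are descriptions.

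The other RTL genes and PEG10 come from the same kind of retrotransposon, and 5 of 9 were tested. RTL1, RTL3, RTL4 and RTL9 had at most 2 counts in any library. With siCDO1A 1 of the 5 passed the test and was higher, where 7.37% of all genes were higher and 7.48% lower, with a median log2 fold change of 0.08 over the 5 beside 0.01 over all genes. With siCDO1C, where 4.77% of all genes were changed, none passed by edgeR or by DESeq2. At an unadjusted p under 0.05 (edgeR) there was 1 of the 5, beside 2890 of all 15555 genes. The median with siCDO1C was -0.06 beside a median of -0.000233 over all genes. Without siCDO1C replicate 2, PEG10 (0.25, adjusted p = 0.000256, edgeR) and RTL10 (0.26, adjusted p = 0.00388, edgeR) were higher with siCDO1C. In the direct comparison of the siRNAs, where 0.444% of all genes were changed, none passed by either tool. There 0 had an unadjusted p under 0.05, beside 1190 of all 15555 genes (edgeR).

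The gene that passed was RTL10, with 90.6 ± 3.33 CPM in siCtrl and 105 ± 3.04 CPM in siCDO1A cells (SD, n = 3; log2 fold change 0.21, adjusted p = 0.0254, edgeR). Its adjusted p rose to 0.112 with the batch as a block and to at most 0.143 when 1 library was left out. PEG10, which encodes a capsid-forming Gag-Pol-like protein, was the most abundant relative with 959 ± 38.5 CPM in siCtrl, 1016 ± 85.4 in siCDO1A and 1054 ± 151 in siCDO1C cells. It did not pass the test with siCDO1A (log2 fold change 0.08, adjusted p = 0.362, edgeR) or with siCDO1C (0.13, adjusted p = 0.507, edgeR). RTL6 was at 104, 95.7 and 94.4 CPM.

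The PNMA genes (paraneoplastic antigens) form another Gag-derived family, and 6 of 15 were tested. With siCDO1A, 2 were higher and none lower, beside 7.37% and 7.48% of all genes, and the median log2 fold change of the 6 was 0.20. PNMA1 went from 65.0 ± 6.30 to 82.4 ± 4.82 CPM (log2 fold change 0.34, adjusted p = 0.00409, edgeR) and PNMA3 from 2.08 ± 0.26 to 4.31 ± 0.39 CPM (1.04, adjusted p = 0.00245, edgeR). Both kept their call in all 12 alternatives tried.

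With siCDO1C 1 PNMA gene was lower and none higher, beside 2.5% and 2.27% of all genes. This was PNMA2, with 3.06 ± 0.797 CPM in siCtrl and 1.39 ± 0.135 CPM in siCDO1C cells (log2 fold change -1.15, adjusted p = 0.0293, edgeR). The adjusted p was 0.167, 0.107, 0.117 and 0.0521 without siCtrl replicate 1, siCtrl replicate 3, siCDO1C replicate 1 or siCDO1C replicate 3. With siCDO1A, PNMA2 was at 1.73 ± 0.474 CPM, with all libraries below those of siCtrl (log2 fold change -0.80, adjusted p = 0.0511, edgeR). Over the 12 alternatives this adjusted p was 0.0127 to 0.242, and it was under the threshold with RLE size factors (0.0499), without the filter (0.0398) and with at least 10 counts in every library (0.0442), which makes 3 PNMA genes called. The median of the 6 was 0.11 with siCDO1C.

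In the direct comparison of the siRNAs no PNMA gene passed by edgeR or by DESeq2, with 1 at an unadjusted p under 0.05. Over all genes 0.444% were changed there, and 1190 of 15555 were under the unadjusted limit (edgeR). Of the 11 other genes derived from LTR elements, such as captured viral envelope genes, 6 were tested, with medians of 0.14 with siCDO1A and 0.07 with siCDO1C. ERVMER34-1, which encodes an envelope protein of an endogenous retrovirus, was higher with siCDO1A (8.43 ± 0.552 to 11.2 ± 1.10 CPM, log2 fold change 0.40, adjusted p = 0.0412, edgeR), a call lost in 8 of 12 alternatives, among them the batch block (0.075) and DESeq2 (0.0864). With siCDO1A, where 14.8% of all genes were changed, no other of the 6 passed by edgeR. With siCDO1C, where 4.77% were changed, none passed by either tool. At an unadjusted p under 0.05 there were 2 of the 6 with siCDO1C, beside 2890 of all 15555 genes (edgeR). Between the siRNAs none passed by either tool, with 0 at this limit.

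**Figure D5:**
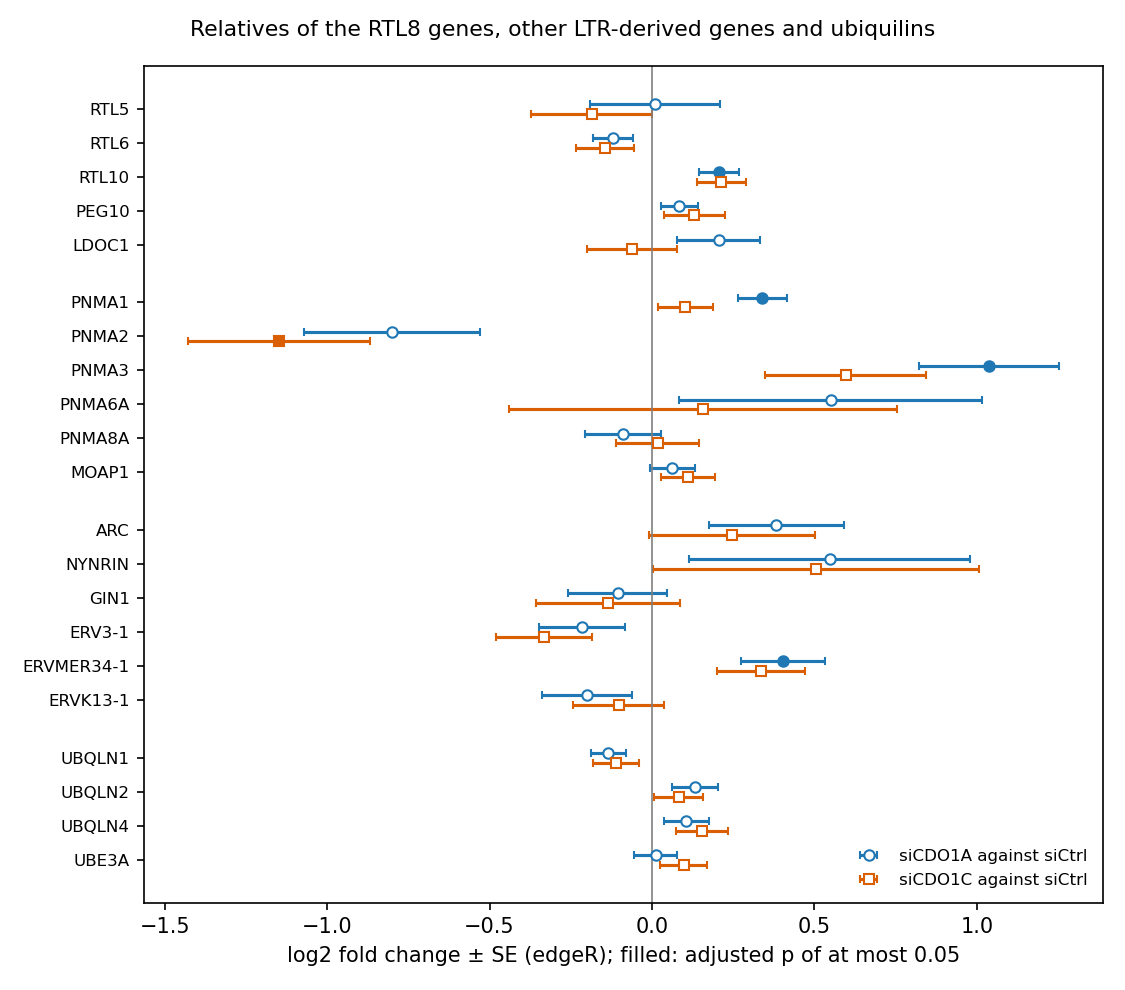
Log2 fold changes against siCtrl of the tested RTL and PEG10 relatives, PNMA genes, other LTR-derived genes, ubiquilins and UBE3A. Values with siCDO1A and siCDO1C stand side by side, with bars that show the SE from edgeR. Most genes lie near 0, and PNMA3 at 1.04 with siCDO1A and PNMA2 at -1.15 with siCDO1C lie farthest out among those called.

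Of the ubiquilins and UBE3A, a ubiquitin ligase, 4 of 6 genes were tested and none passed the test of edgeR or DESeq2 in any of the 3 comparisons. Over all genes tested, 14.8% were changed with siCDO1A, 4.77% with siCDO1C and 0.444% between the siRNAs. At an unadjusted p under 0.05 (edgeR) there was 1 gene with siCDO1A and none in the other comparisons. Of all 15555 genes, 4347 were under this limit with siCDO1A, 2890 with siCDO1C and 1190 between the siRNAs. UBQLN2 was at 69.2 ± 3.36 CPM in siCtrl, 75.9 ± 5.04 in siCDO1A and 73.6 ± 0.5 in siCDO1C cells (log2 fold changes 0.13 and 0.08, adjusted p = 0.223 and 0.622, edgeR). UBQLN1 was at 208, 190 and 194 CPM, and it passed as lower with siCDO1A without siCDO1A replicate 3 (log2 fold change -0.15, adjusted p = 0.0257, edgeR). UBQLN4 passed as higher with siCDO1C without siCDO1C replicate 2 (0.21, adjusted p = 0.0493, edgeR).

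Genes with levels most like those of each member were found by Pearson's r of log2(CPM + 1) over the 9 libraries among 11337 genes with at least 5 CPM. These r are descriptions over libraries that fall into 3 groups and share their depth and processing. For RTL8A they were ANKRD46 (0.975), PTGR1 (0.975), which encodes a reductase of prostaglandins and reactive aldehydes, FKBP11 (0.97), an isomerase of the endoplasmic reticulum, the noncoding SNHG3 (0.96) and FAM8A1 (0.95). For RTL8B they were AGFG2 (0.977), MAP3K5 (0.968), a stress-activated kinase, MOB1A (0.965), a Hippo pathway cofactor, ADM2 (0.963) and LPIN1 (0.958). For RTL8C they were TRIM41 (0.966), TP53TG1 (0.963), APLP2 (0.959), SFXN1 (0.95), a mitochondrial serine carrier, and RNF149 (0.93).

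Among the members, RTL8B and RTL8C had r = 0.852, RTL8A and RTL8C 0.343 and RTL8A and RTL8B -0.05. RTL8C ranked at place 112 among the 11336 other genes in likeness to RTL8B, and RTL8B at place 59 in likeness to RTL8C. The 5 genes closest to RTL8B had log2 fold changes of -1.15 to -0.29 with siCDO1C and -0.31 to 0.03 with siCDO1A. Those closest to RTL8A had 0.24 to 0.91 with siCDO1A and 0.09 to 0.55 with siCDO1C. All these genes were picked by likeness over the same libraries, so their fold changes follow from that choice and are descriptions.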

How the data were processed

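Poly(A) RNA of VCaP cells was made into stranded paired-end libraries, aligned to hg38 with HISAT2 2.0.5 (submitters' processing notes, which also name CASAVA) and counted per gene with featureCounts. Whole-number counts were deposited by the authors without normalization. Which strand and multiple-mapping options were set in the counting is not given in the sources used here. The table has 3 columns that match no sample, which were used in no step. The members and lists were chosen with earlier results of these data known, and the genes named are the 3 members, the list genes and the 5 genes most like each member.

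Genes were kept by filterByExpr (minimum count 10 over the 9 libraries), counts were normalized by TMM, and each comparison was fitted on its 6 libraries with the robust quasi-likelihood test of edgeR 4.0.16 in R 4.3.3, with Benjamini-Hochberg adjustment over 15555 genes and a threshold of 0.05. CPM use TMM-scaled totals, over the libraries' 12061295 to 16073698 counts. Intervals are at 95%, and counting limits cover counting error only. Tests were checked on simulated data. Alternatives were DESeq2 1.42.0, other size factors, no filter, 1 fit over all libraries, a replicate block, leaving out each library and summed members.

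The labels have a batch field that equals the replicate number, and the pairing is taken from it alone. The correlation of deviations of same-numbered libraries was -0.38 to 0.39 over 11337 genes and does not itself show a pairing. File coordinates matched GRCh38, and transcripts were taken by identifier from GENCODE v44lift37 (GRCh37). The sequences themselves are not reported here.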

Additional observations from a re-analysis of the deposited data

Results flagged for a closer look

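RTL8C had opposite signs with the 2 siRNAs: every siCDO1A library was above and every siCDO1C library below the siCtrl libraries. Its log2 fold change for siCDO1C against siCDO1A was -0.99. The gene was selected on these values, and the difference between the siRNAs was not tested.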

How the results depend on the processing

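The rise of RTL8A with siCDO1A (0.47 to 0.54 on the log2 scale when 1 library was left out) and the decrease of RTL8B with siCDO1C (-0.71 to -0.59) kept their calls in all 12 alternative fits of the single genes. The other ranges without 1 library were 0.16 to 0.30 for RTL8A with siCDO1C, -0.34 to -0.21 for RTL8A in siCDO1C against siCDO1A, -0.09 to -0.03 for RTL8B with siCDO1A, and -0.65 to -0.54 for RTL8B in siCDO1C against siCDO1A. RTL8C ranged over 0.22 to 0.34, -0.80 to -0.62 and -1.09 to -0.91 in the same order, and the summed family over 0.20 to 0.28, -0.40 to -0.29 and -0.65 to -0.55.

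Where the counts of all 3 members stood for RTL8A, its value was -0.34 with siCDO1C and -0.59 for siCDO1C against siCDO1A. For RTL8B with siCDO1A this gave 0.25. With RTL8A and RTL8B summed the values were -0.17 with siCDO1C for both, 0.23 for RTL8B with siCDO1A and -0.39 for RTL8B in siCDO1C against siCDO1A. These follow from adding members that moved differently. RTL8C with siCDO1A was at 0.30 both with the replicate block and in 1 fit over the 9 libraries. The summed family with siCDO1A was at 0.25 with the replicate block, 0.20 without siCtrl replicate 2 and 0.23 without siCDO1A replicate 2. With siCDO1C the summed family was at -0.40 to -0.29 without 1 library. RTL8C was selected on its values and is a part of the sum, so no test outcome is given for these fits. The cause of the differences between fits was not tested, and these values are descriptions. Per kilobase, the RTL8C share was 43.8%, 44.1% and 33.6% with siCtrl, siCDO1A and siCDO1C, and in reads it was 36.3% to 37.6%, 37.1% to 38.9% and 27.8% to 30.1% without 1 library.

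Genes changed with siCDO1A were 2309, against 1369 in 1 fit over the 9 libraries and 1358 with the replicate block. For siCDO1C against siCDO1A they were 69, against 104 by DESeq2, 128 in 1 fit, 153 without the filter and 121 with the block. Without 1 library the counts were 1292 to 3454, 263 to 2068 and 18 to 447. With the block, RTL10 (0.112), ERVMER34-1 (0.075) and ZNF75D (0.0542) lost their calls with siCDO1A, and no other named call of RTL8A, RTL8B or a list gene changed. Of 180 alternative counts of called list genes, 153 were within 1.5 times the count given, 4 were above and 23 below.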

Other observations

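Of 47 genes within 500 kb of the RTL8 genes, 8 were tested. With siCDO1A 1 was higher and 1 lower, where 14.8% of all genes were changed. HPRT1, which encodes a purine salvage enzyme, was the higher gene (62.1 ± 4.68 to 79.8 ± 2.58 CPM, SD, n = 3, log2 fold change 0.37, adjusted p = 0.00132 by edgeR) and ZNF75D, a zinc finger gene, was the lower gene (16.8 ± 1.81 to 12.7 ± 0.999 CPM, log2 fold change -0.40, adjusted p = 0.0241 by edgeR). HPRT1 lost its call in 1 of 12 alternatives, with adjusted p = 0.0671 in 1 fit over the 9 libraries, and ZNF75D in 4 of 12, with up to 0.128 without siCtrl replicate 1. With siCDO1C, where 4.77% of all genes were changed, none of the 8 passed by edgeR or DESeq2. At an unadjusted p under 0.05 (edgeR) there was 1 of the 8, beside 2890 of all 15555 genes. The medians of the 8 were 0.03 and 0.02 with siCDO1A and siCDO1C.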
